A study of Rattus norvegicus with 4 samples.

Results

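Of the genes measured in rat L6 myoblasts with and without human hepatocyte growth factor (hHGF), the ones described here build and cross-link the collagen and laminin scaffold around the cells. A fixed list of 38 genes was taken: 22 collagen chains, the laminin chains with the nidogens that link them, the lysyl oxidases, and genes that fold or process procollagen. A gene was measured by the array's probe sets that carry its symbol and no other, and its value is their mean. In this way 37 of the 38 listed genes were found, with 62 probe sets, among 14217 genes in all. Adamts2, which removes the amino-terminal propeptide of procollagen, had no such probe set and was not analysed here. Of the 37 genes, 21 had several probe sets and 16 had 1.

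The study profiled 4 cultures, each on its own Affymetrix array for rat. L6 is a skeletal myoblast line of rat, labelled as strain Wistar. L6-WT myoblasts are the wild type line, and L6-HGF myoblasts are the same line with constitutive expression of human hgf from the retroviral vector pBabepuro, selected with puromycin. No empty-vector line is described, so that an effect of hHGF and one of the vector or the selection cannot be told apart. Each line was grown as a monolayer and as a sheet, a layer of myoblasts plated on a thermoreactive dish that releases it intact at room temperature. The sources used here do not give the plating density of the monolayers. The study asked whether hHGF changes the expression profile of the donor myoblasts. Every value is a log2 value that the authors centred per probe set on the median of its 4 arrays, so it gives how far a culture lies from the middle of the 4 and no signal level. For this reason the levels of different genes cannot be compared, dim and bright probe sets look alike, and the level of myoblast markers could not be checked. RNA came from bulk cultures, in which fewer cells of a type and less RNA per cell cannot be told apart.

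Collagens are trimers of alpha chains. The fibrillar collagens assemble into the banded fibrils of connective tissue, fibril-associated collagens sit on the surface of those fibrils, and type VI collagen forms beaded filaments near cells. Type IV collagen and the laminins form separate networks of the basement membrane that wraps each muscle fibre, and the nidogens bridge them. Procollagen is hydroxylated and folded in the endoplasmic reticulum, trimmed outside the cell by propeptidases, and cross-linked by lysyl oxidases, which oxidise lysine residues. In skeletal muscle, loss of type VI collagen or of the laminin alpha 2 chain causes muscular dystrophy, and excess fibrillar collagen is the substance of a scar.

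The start regions of 27 of the 38 listed genes were found in the RefSeq promoter table of rat build GRCr8, which holds 250 bases before and 50 bases after each start. The first stretch is shown because Col4a1 and Col4a2, the chains of the main type IV collagen trimer, start head to head, so that the bases between their starts belong to both. They lie at chr16:84885521-84885596 and are given on the plus strand, which is the strand of Col4a1, with the letters of a GC box on the opposite strand in capitals.
Col4a1 and Col4a2: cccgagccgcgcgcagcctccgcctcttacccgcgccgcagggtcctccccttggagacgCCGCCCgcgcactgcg
This stretch of 76 bases has a GC content of 78.9%. Of the 27 genes, Col1a2 and Lama4 were the members with the letters TATAAA on either strand, and 120 bases of each are shown for that reason, both on the plus strand, at chr4:33518307-33518426 for Col1a2, a chain of type I collagen, and at chr20:43946648-43946767 for Lama4, the laminin alpha 4 chain. Capitals mark TATAAA and, in Col1a2, the letters of CCAAT on the opposite strand.
Col1a2: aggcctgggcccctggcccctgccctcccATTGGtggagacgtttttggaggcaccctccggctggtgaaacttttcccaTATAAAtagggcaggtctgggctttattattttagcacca
Lama4: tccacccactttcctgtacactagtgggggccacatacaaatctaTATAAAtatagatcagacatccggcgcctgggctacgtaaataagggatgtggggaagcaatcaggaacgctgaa
The letters TATAAA begin 170 bases upstream of the annotated start in Col1a2 and 205 bases upstream in Lama4. Over windows of 300 bases and both strands, TATAAA was found in 2 of the 27 genes and in 14.2% of all 33469 promoters. The letters CCAAT were found in 7 of the 27 genes as compared to 37.5% of all promoters, and the GC box GGGCGG in 19 of the 27 as compared to 33.1%. These are matches of letters and say nothing on whether a factor binds there.

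Many of the 37 genes had a high value in L6-WT monolayers. On that array 29 genes lay above 0 and 8 below, as compared to 6777 above and 7395 below among all 14217 genes. For 23 of the 37, or 62.2%, the L6-WT monolayer array gave the highest of the 4 values. Over all genes, 20.6% had their highest value on that array. The median of the 37 genes was 0.16 (log2) in L6-WT monolayers, -0.03 in L6-HGF monolayers, -0.01 in L6-WT sheets and -0.06 in L6-HGF sheets. Col7a1, the collagen of anchoring fibrils, was the 1 member whose lowest value lay on the L6-WT monolayer array. The lowest values were otherwise spread over the other arrays. In L6-HGF monolayers 13 genes were lowest, or 35.1%, in L6-WT sheets 12, or 32.4%, and in L6-HGF sheets 11, or 29.7%. Over all genes these shares were 28.3%, 20.6% and 25.9%, and 25.2% were lowest in L6-WT monolayers. L6-WT monolayers serve both as the control of the hHGF comparison in monolayers and as the control of the sheet comparison in L6-WT, so the lower values in those 2 comparisons share an array.

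**Figure D1:**
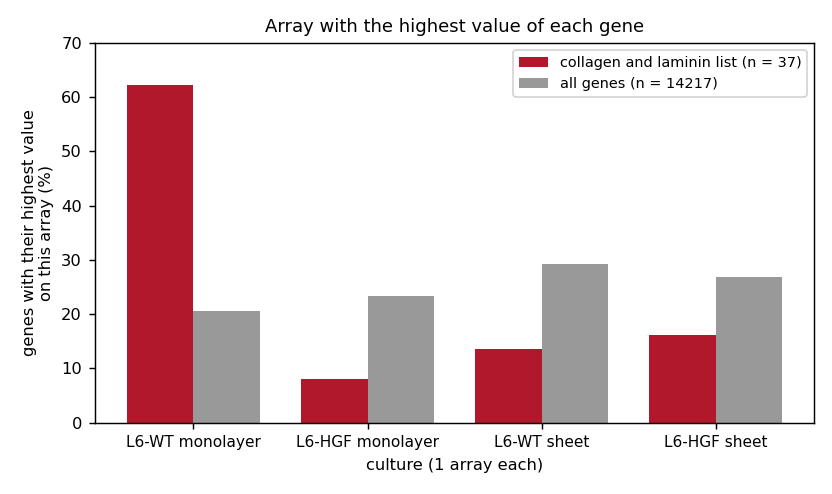
Share of genes, in percent, that had their highest value on each of the 4 arrays, for the 37 collagen, laminin and cross-linking genes (red) and for all 14217 genes (grey). The red bar reaches 62.2% for L6-WT monolayers, where the grey bar is at 20.6%.

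**Figure D2:**
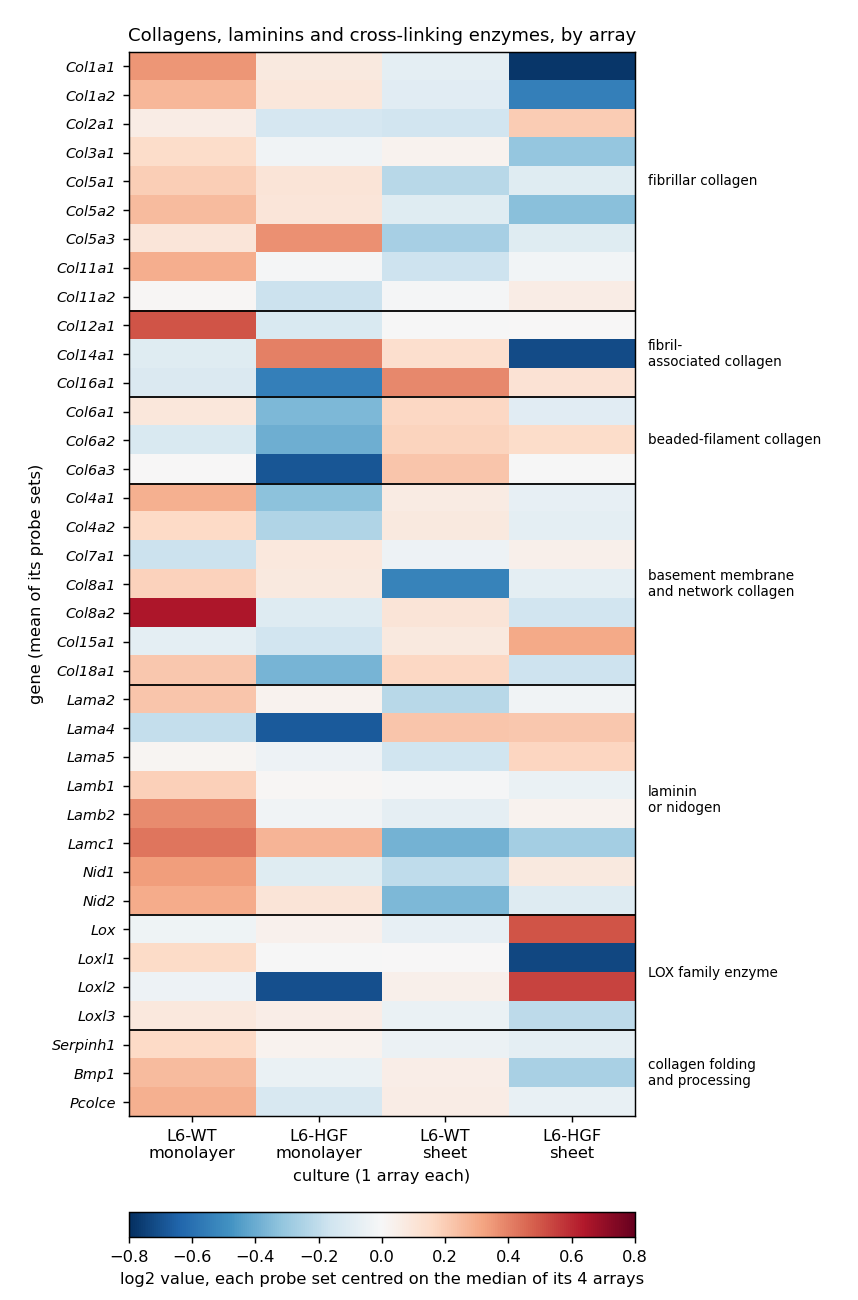
Centred log2 value of each of the 37 genes (rows, grouped by class) on the 4 arrays (columns, 1 array per culture), with red above and blue below the median of the 4 arrays. The L6-WT monolayer column is mostly red, and Col1a1, Col1a2, Col14a1 and Loxl1 are bluest in the L6-HGF sheet.

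In monolayers, most of the genes had a lower value in L6-HGF than in L6-WT, but no difference reached 2-fold. Of the 37 genes, 33 lay below 0, with a median of -0.19 (log2), whereas 49.4% of all genes lay below 0 and their median was 0.0016. The differences ranged from -0.75 for Col8a2 to 0.50 for Col14a1. Past the 2-fold threshold of the study there were 0 members in either direction, as compared to 0.225% of all genes higher and 0.309% lower. At 1.5-fold, 0 members were higher and 6 lower, which is 16.2% of them, as compared to 1.22% and 1.29% of all genes. In sheets, the same comparison gave 17 genes above 0 and 20 below, with a median of -0.03, close to the median of -0.02 over all genes, of which 53.7% lay below 0. Again 0 members were past 2-fold, against 0.492% of all genes higher and 0.95% lower. At 1.5-fold, 0 members were higher and 3, or 8.11%, lower, against 2.2% and 3.58% of all genes. From monolayers to sheets, 19 genes were below 0 in both formats, 3 were above 0 in both, 14 were below 0 in monolayers and above in sheets, and 1, Col14a1, was the other way round. The sign was the same in both formats for 59.5% of the members and for 57.6% of all genes, of which 30.4% were below 0 in both and 18.9% below and then above. The monolayer and the sheet comparison share no array.

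Between sheet and monolayer, L6-WT gave 28 of the 37 genes below 0, with a median of -0.20, whereas 45.6% of all genes were below 0 and their median was 0.03. No member was past 2-fold, with a background of 0.717% of all genes higher and 0.492% lower. At 1.5-fold, 0 members were higher and 3, or 8.11%, lower, against 3.37% and 3.76% of all genes. In L6-HGF, 19 genes were lower in the sheet and 18 higher, with a median of -0.01, whereas 45.9% of all genes were below 0 and their median was 0.03. The spread of the members was the widest of the 4 comparisons, from -1.12 to 1.24. Here 1 member, Loxl2, was more than 2-fold higher in the sheet and 1, Col14a1, more than 2-fold lower, against 1.17% of all genes higher and 2.57% lower, so that a single gene in each direction is about what the whole array gives. At 1.5-fold, 4 members were higher and 4 lower, 10.8% each, against 4.02% and 7.28% of all genes. With the arrays centred on the bacterial control probe sets instead of as deposited, the median of all genes shifted by -0.10, -0.04, -0.18 and -0.12 in these 4 comparisons. Relative to the median of all genes, which such a centring cannot change, the median of the 37 genes was -0.20 in monolayers, -0.01 in sheets, -0.23 in L6-WT and -0.04 in L6-HGF.

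**Figure D3:**
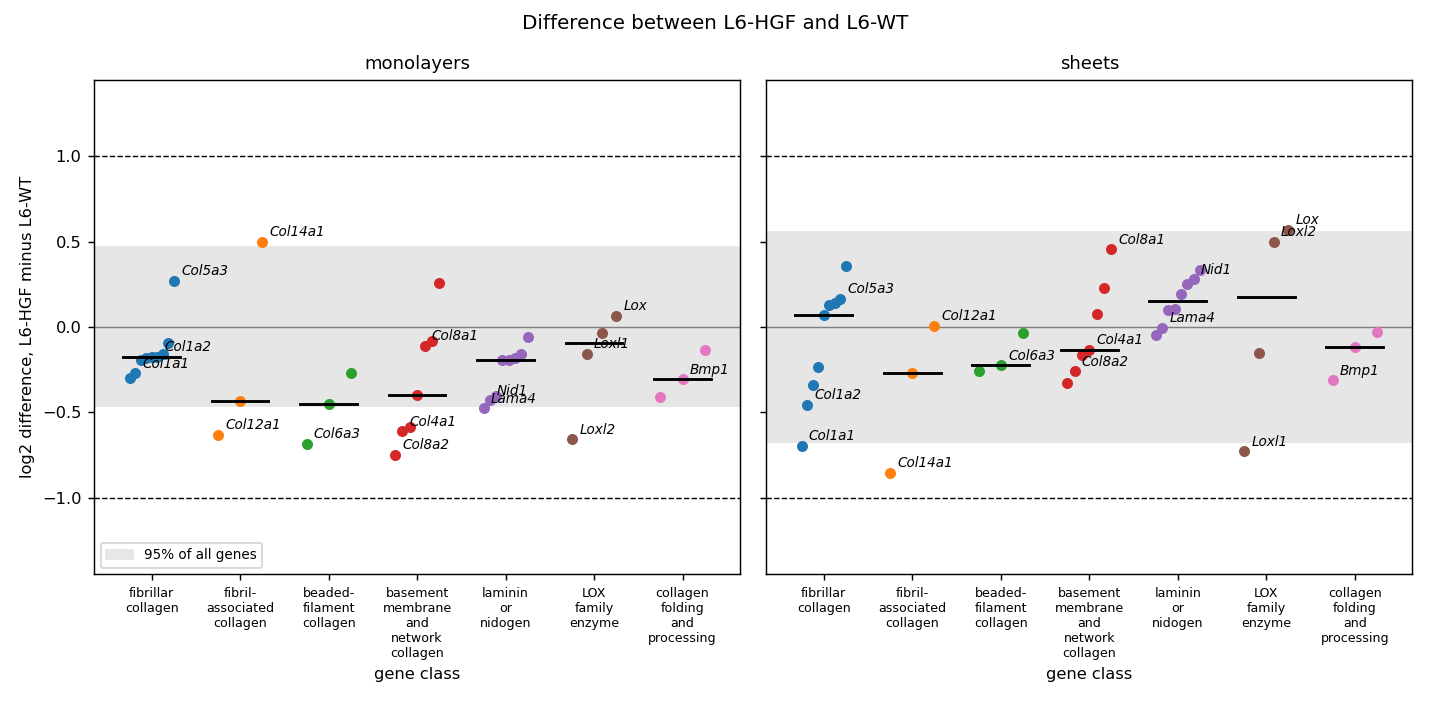
Log2 difference, as L6-HGF minus L6-WT, of the 37 genes (points) by class, in monolayers (left) and in sheets (right), with 1 array per culture and no error bars. Black bars are class medians, the grey band holds 95% of all genes and dashed lines mark 2-fold. No point lies past a dashed line, and 33 of 37 points lie below 0 in monolayers.

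The fibrillar collagens are given first. Col1a1 and Col1a2, which together form type I collagen, shared 1 order of the arrays. Col1a1 lay at 0.35 in L6-WT monolayers, 0.08 in L6-HGF monolayers, -0.08 in L6-WT sheets and -0.78 in L6-HGF sheets. Col1a2 lay at 0.27, 0.09, -0.09 and -0.55 on the same arrays. Both chains were thus highest in L6-WT monolayers and lowest in L6-HGF sheets. The hHGF difference of Col1a1 was -0.27 in monolayers and -0.70 in sheets, and its difference between sheet and monolayer was -0.43 in L6-WT and -0.86 in L6-HGF, which is 1.81-fold lower. Col3a1, the chain of type III collagen that accompanies type I in soft tissue, had the same order with smaller steps, at 0.15, -0.03, 0.03 and -0.31, except that L6-WT sheets lay above L6-HGF monolayers.

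Other fibrillar chains went apart from type I collagen in sheets. Col2a1, the chain of cartilage collagen, lay at 0.06 in L6-WT monolayers, -0.13 in L6-HGF monolayers, -0.15 in L6-WT sheets and 0.20 in L6-HGF sheets, which gave the highest hHGF difference of the class in sheets, 0.36. Its 3 probe sets gave 0.20, 0.33 and 0.54 there, and with the median of the probe sets on each array the difference was 0.20. Col5a3, a minor chain of type V collagen, lay at 0.10, 0.37, -0.26 and -0.10 and was the 1 fibrillar chain above 0 in the monolayer comparison, by 0.27. Col11a1, which like type V collagen helps to set fibril diameter, had the lowest monolayer difference, -0.30, from 0.29 in L6-WT and -0.01 in L6-HGF. It lay at -0.16 in L6-WT sheets and -0.02 in L6-HGF sheets. Its 3 probe sets gave -0.60, -0.18 and -0.13 in the monolayer comparison, and from -0.06 to 0.30 in that of sheets. With the median of the probe sets its monolayer difference was -0.24, where Col1a1 stood at -0.27. Over the class, 8 of 9 chains were below 0 in the monolayer hHGF comparison (median -0.18) and 4 of 9 in sheets (median 0.07). All 9 chains were lower in L6-WT sheets than in L6-WT monolayers, with differences from -0.02 to -0.45 (median -0.36), and 7 of 9 in L6-HGF (median -0.28). The chains not named one by one, Col5a1, Col5a2 and Col11a2, had hHGF differences from -0.23 to 0.13.

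The fibril-associated collagens differed among themselves. Col14a1, which binds the surface of type I fibrils, lay at -0.09 in L6-WT monolayers, 0.41 in L6-HGF monolayers, 0.13 in L6-WT sheets and -0.72 in L6-HGF sheets. It was the highest of the class with hHGF in monolayers, by 0.50, and the lowest in sheets, at -0.85. From monolayer to sheet it was 2.18-fold lower in L6-HGF, a difference of -1.12, as compared to a difference of 0.23 in L6-WT. Both of its probe sets were lower in L6-HGF sheets, at -0.73 and -1.52, but after quantile normalization the gene stood at -0.93 and was within 2-fold. Col12a1, a relative found in tendon and muscle, was highest in L6-WT monolayers at 0.51 and lay at -0.12 in L6-HGF monolayers, while both sheets were at 0.00 to 2 decimals. Its monolayer hHGF difference of -0.63 was the lowest of the class. Col16a1 lay at -0.12, -0.55, 0.38 and 0.12, higher in the sheets than in the monolayers of either line, by 0.50 in L6-WT and 0.67 in L6-HGF.

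The chains of type VI collagen had the same sign in each comparison. Col6a1 lay at 0.09 in L6-WT monolayers, -0.36 in L6-HGF monolayers, 0.17 in L6-WT sheets and -0.09 in L6-HGF sheets. Col6a2 lay at -0.12, -0.39, 0.18 and 0.15, and Col6a3 at 0.00, -0.68, 0.22 and 0.00. All 3 chains were thus lowest in L6-HGF monolayers and highest in L6-WT sheets. The hHGF difference in monolayers was -0.45 for Col6a1, -0.27 for Col6a2 and -0.69 for Col6a3, and in sheets it was -0.26, -0.03 and -0.22. Between sheet and monolayer, the 3 chains were higher in the sheet by 0.08 to 0.30 in L6-WT and by 0.27 to 0.68 in L6-HGF. Type VI collagen therefore had a median above 0 in the sheet comparisons, 0.22 and 0.54, where the fibrillar chains had medians of -0.36 and -0.28. With the arrays centred on the bacterial controls, Col6a1 in L6-WT turned to -0.11.

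**Figure D4:**
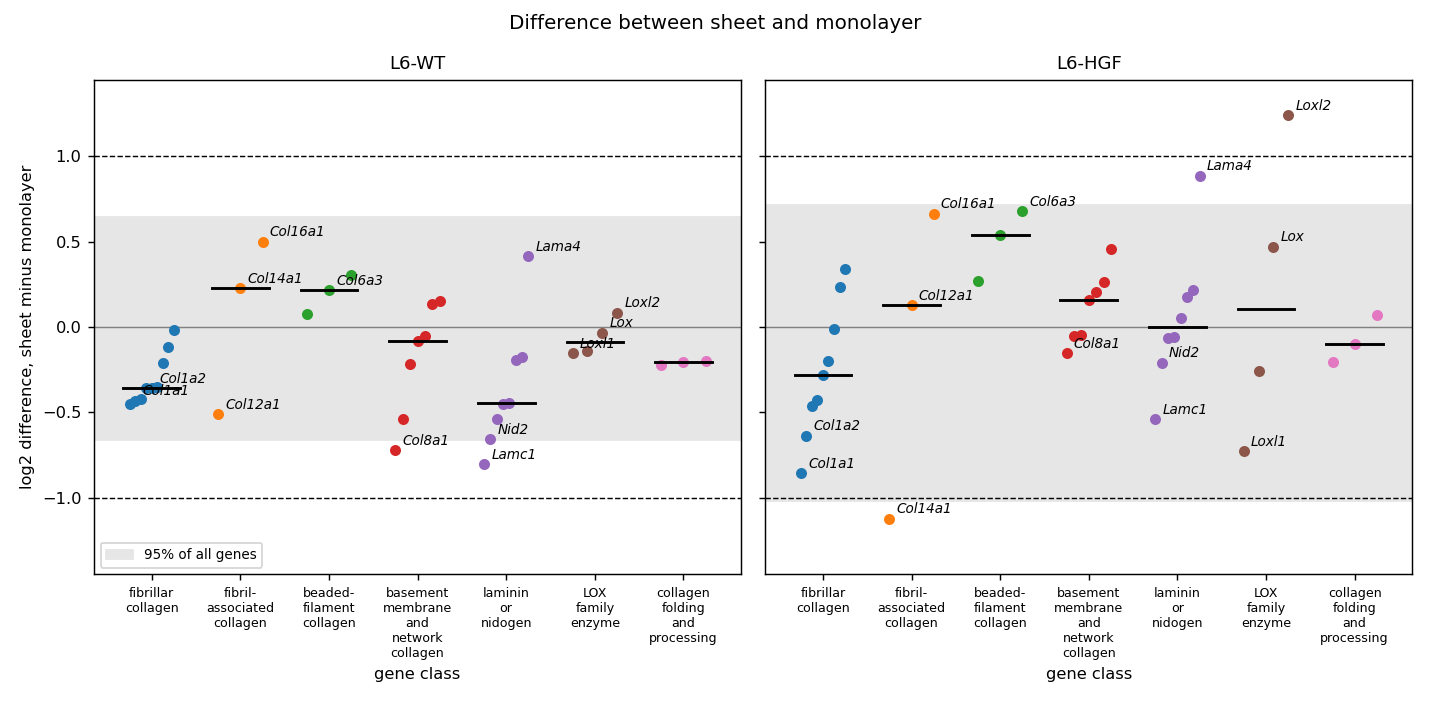
Log2 difference between sheet and monolayer for each of the 37 genes (points) by class, in L6-WT (left) and in L6-HGF (right), with 1 array per culture and no error bars. Black bars are class medians, the grey band holds 95% of all genes and dashed lines mark 2-fold. In L6-HGF, Loxl2 at 1.24 and Col14a1 at -1.12 lie past the dashed lines, and in L6-WT all 9 fibrillar chains lie below 0.

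Among the collagens of basement membranes and other networks, 6 of 7 were below 0 with hHGF in monolayers (median -0.40) and 4 of 7 in sheets (median -0.13). The gene values of Col4a1 and Col4a2, whose shared start region is printed above, had the same sign in all 4 comparisons. Between sheet and monolayer in L6-WT, however, the probe sets of Col4a1 gave -0.44 and 0.01, and Col4a2 stood at -0.08. The part of the shared start region in these values was not tested. Col4a1 lay at 0.28 in L6-WT monolayers, -0.33 in L6-HGF monolayers, 0.07 in L6-WT sheets and -0.06 in L6-HGF sheets, and Col4a2 at 0.16, -0.24, 0.08 and -0.08. Their hHGF differences were -0.61 and -0.40 in monolayers and -0.13 and -0.16 in sheets. Both chains were highest in L6-WT monolayers and lowest in L6-HGF monolayers.

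Col18a1, the proteoglycan chain whose end fragment is known as endostatin, followed type IV collagen. It lay at 0.21 in L6-WT monolayers, -0.37 in L6-HGF monolayers, 0.16 in L6-WT sheets and -0.16 in L6-HGF sheets, and its hHGF difference in sheets, -0.33, was the lowest of the class. Col8a2, a chain of the type VIII collagen network, had the lowest monolayer difference, -0.75, since its value was 0.64 in L6-WT monolayers and -0.10 in L6-HGF monolayers. In sheets it lay at 0.10 and -0.15. Its partner chain Col8a1 went another way, at 0.19 and 0.08 in the monolayers of L6-WT and L6-HGF and at -0.53 and -0.08 in their sheets, which gave the highest hHGF difference of the class in sheets, 0.46. Col7a1 lay at -0.17, 0.08, -0.04 and 0.04 and was the highest of the class in monolayers, by 0.26. Col15a1, which lies at the outer side of muscle basement membranes, had hHGF differences of -0.08 and 0.23.

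All 8 laminin and nidogen genes were below 0 with hHGF in monolayers (median -0.20), and 6 of the 8 were above 0 in sheets (median 0.15). In L6-WT, 7 of the 8 were lower in the sheet (median -0.45). Of these, Lama5 stood at -0.17, but its probe sets ranged from -0.64 to 0.10. With the median of the probe sets on each array, Lama5 stood at 0.02. Lama4, a laminin chain of vessel walls and peripheral nerve, was the exception among the gene values. It lay at -0.19 in L6-WT monolayers, -0.67 in L6-HGF monolayers and 0.22 in the sheets of either line. The difference between sheet and monolayer was 0.41 in L6-WT and 0.89 in L6-HGF, and its hHGF difference of -0.48 in monolayers was the lowest of the class. The 2 probe sets of Lama4 were both higher in the L6-HGF sheet but by unequal amounts, 0.43 and 1.35.

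Lama2, the chain of the main muscle laminin, lay at 0.22 in L6-WT monolayers, 0.03 in L6-HGF monolayers, -0.22 in L6-WT sheets and -0.03 in L6-HGF sheets. Lamc1, the gamma chain that most laminins contain, lay at 0.43, 0.27, -0.38 and -0.27. The monolayers of both lines thus lay above both sheets for Lamc1, with sheet minus monolayer at -0.81 in L6-WT and -0.54 in L6-HGF, while the hHGF difference was -0.16 in monolayers and 0.11 in sheets. Lama5 had the highest hHGF difference of the class in each format, -0.06 and 0.33, with values of 0.01, -0.04, -0.16 and 0.17, but 1 of its 3 probe sets went against the others in monolayers, and the median of the 3 gave 0.14 there. Lamb1, a beta chain, lay at 0.19, 0.01, -0.01 and -0.05 and had the lowest hHGF difference in sheets, -0.05. Lamb2, the beta chain of the synaptic and kidney basement membranes, had hHGF differences of -0.40 and 0.10. The nidogens had hHGF differences of opposite sign in the formats, with Nid1 at -0.43 and 0.28 and Nid2 at -0.19 and 0.25.

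In the hHGF comparison of sheets, the lysyl oxidases had the largest SD of the classes, 0.61 (log2) over the 4 genes, as compared to 0.12 to 0.44 in the other classes. In each other comparison the fibril-associated collagens had a larger SD than the lysyl oxidases. These were 0.60 and 0.32 with hHGF in monolayers, 0.52 and 0.11 between sheet and monolayer in L6-WT, and 0.92 and 0.86 in L6-HGF. Loxl2, which also cross-links type IV collagen, lay at -0.04 in L6-WT monolayers, -0.70 in L6-HGF monolayers, 0.04 in L6-WT sheets and 0.54 in L6-HGF sheets. With hHGF it was lower in monolayers, at -0.66, and higher in sheets, at 0.50. From monolayer to sheet it was 2.37-fold higher in L6-HGF, a difference of 1.24, and its probe sets gave 1.31 and 1.18. In L6-WT the difference was 0.08, which turned to -0.10 with the arrays centred on the bacterial controls.

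Lox, the founding member of the family and a cross-linker of fibrillar collagen and elastin, lay at -0.03 in L6-WT monolayers, 0.03 in L6-HGF monolayers, -0.07 in L6-WT sheets and 0.50 in L6-HGF sheets. Only the L6-HGF sheet stood apart, 0.57 above the L6-WT sheet, which is 1.49-fold. Its probe sets gave 0.33 and 0.81 in that comparison, and without probe sets shared by transcripts or families the difference was 0.33. Loxl1, which is needed for elastic fibres, was the reverse, at 0.16, 0.00, 0.00 and -0.73, and had the lowest hHGF difference of the class in sheets, -0.73. Loxl3 had hHGF differences of -0.03 and -0.15. In the L6-HGF sheet, therefore, the values of Lox and Loxl2 were at their highest of the 4 arrays, and those of Loxl1 and of both type I collagen chains at their lowest.

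The genes for folding and processing all had a difference within 1.5-fold in each comparison. Serpinh1, the collagen chaperone also called Hsp47, lay at 0.16 in L6-WT monolayers, 0.03 in L6-HGF monolayers, -0.04 in L6-WT sheets and -0.08 in L6-HGF sheets. Bmp1, the protease that removes the carboxy-terminal propeptide, lay at 0.25, -0.05, 0.05 and -0.26, with an hHGF difference of -0.31 in each format. Pcolce, which enhances that cleavage, lay at 0.28, -0.13, 0.06 and -0.06 and had the lowest hHGF difference of the class in monolayers, -0.41. All 3 genes were below 0 with hHGF in both formats (medians -0.31 and -0.12) and all 3 were highest in L6-WT monolayers.

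With 1 array per culture, no comparison above has a replicate check. As a measure of technical spread, the SD over 45 bacterial control probe sets was 0.12 (log2) in the monolayer hHGF comparison, 0.22 in that of sheets, and 0.18 and 0.16 in the sheet comparisons of L6-WT and L6-HGF, so that many of the smaller differences above are of the size of this technical spread. Where a gene had several probe sets, all of them had the same sign for 17 of 21 genes in the monolayer hHGF comparison, 14 of 21 in that of sheets, and 18 and 19 of 21 in the sheet comparisons. The probe set of rat Hgf lay at -0.19 in L6-WT monolayers, 0.19 in L6-HGF monolayers, -0.29 in L6-WT sheets and 0.21 in L6-HGF sheets, but it was designed on rat sequence and does not check the human transgene.

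The only test the design allows takes the formats, or the lines, as replicates of each other in limma, with 1 residual degree of freedom, and asks for a difference shared by both. Its residual also holds any true difference of the effect between formats. For the hHGF difference over both formats, 0 of 37 members passed an adjusted p of 0.05, and over all genes 0% did. Without adjustment, 7 of the 37 members and 1312 of 14217 genes, or 9.23%, had p under 0.05. The 7 were all lower in L6-HGF: Col18a1 at -0.46 ± 0.12 (log2, SE), Col1a1 at -0.48 ± 0.14, Col8a2 at -0.50 ± 0.16, Col6a3 at -0.45 ± 0.15, Col6a1 at -0.35 ± 0.11, Col16a1 at -0.35 ± 0.11 and Bmp1 at -0.31 ± 0.10. The smallest adjusted p of a member was 0.531 in limma.

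For the difference between sheet and monolayer over both lines, 0 of 37 members passed, as compared to 0.0141% of all genes. Without adjustment, 11 of the 37 members and 24.4% of all genes had p under 0.05, and the smallest adjusted p of a member was 0.120 in limma. The lowest p-values were those of Lamc1, at -0.67 ± 0.12 (log2, SE), Col16a1, at 0.58 ± 0.11, and Col1a1, at -0.65 ± 0.14. After quantile normalization, Col16a1 passed in limma, with an adjusted p of 0.0454 and a difference of 0.66. It was the 1 member of 37 that did, as compared to 586 of all 14217 genes. The share of members that passed was thus no higher than that of all genes.

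The enzymes and receptors that work with these proteins were taken from a list of 65 partner genes, of which 51 were measured. Past 2-fold with hHGF in monolayers were 0 partner genes higher and 1 lower, Plod2, at -1.06, which is 1.96% of the 51 as compared to the 0.309% of all genes. In sheets, 3 were higher, P4ha1 by 1.27, Plod2 by 1.14 and Lama3 by 1.21, and 0 lower, so that 5.88% of the partner genes were past 2-fold higher as compared to 0.492% of all genes. P4ha1 is a catalytic subunit of prolyl 4-hydroxylase, which stabilises the collagen helix, Plod2 hydroxylates lysines of the collagen telopeptides, and Lama3 is a laminin chain of epithelia.

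Between sheet and monolayer in L6-HGF, 6 partner genes were more than 2-fold higher and 3 lower, or 11.8% and 5.88% of the 51, as compared to 1.17% and 2.57% of all genes. The 6 were the hydroxylases P4ha1 (1.87), P4ha2 (1.40), Plod1 (1.80) and Plod2 (1.95) and the epithelial laminin chains Lama3 (1.34) and Lamb3 (1.25). The 3 were the laminin receptor subunits Itga3 (-1.34), Itga6 (-1.11) and Itga7 (-1.13). In L6-WT, Lamb3 was higher by 1.14 and Itga7 lower, at -1.14, and no other partner gene passed, which is 1.96% in each direction against 0.717% and 0.492% of all genes. Over the arrays in the order L6-WT monolayer, L6-HGF monolayer, L6-WT sheet and L6-HGF sheet, P4ha1 lay at -0.10, -0.50, 0.10 and 1.37, P4ha2 at -0.60, -0.31, 0.31 and 1.09, Plod1 at -0.39, -0.62, 0.39 and 1.18, and Plod2 at 0.13, -0.93, -0.13 and 1.01. These 4 hydroxylases had their highest value in L6-HGF sheets. They were named for being more than 2-fold higher there than in L6-HGF monolayers, so this follows largely from that choice. Other measured hydroxylases differed. P4ha3 and P3h1 were highest in L6-HGF monolayers, at 0.25 and 0.12, and Plod3 in L6-WT monolayers, at 0.16. P3h3 was lowest in L6-HGF sheets, at -0.48. Between sheet and monolayer in L6-HGF, the whole group of 15 measured hydroxylases and endoplasmic reticulum partners had a median of 0.19, as compared to 0.03 over all genes. Of the group, 9 genes, or 60%, were above 0, as compared to 53.9% of all genes. The group held 4 genes more than 1.5-fold higher, the same 4, or 26.7% as compared to 4.02% of all genes. In the hHGF comparison of sheets the median of the group was 0.20. There, 12 of 15 genes were above 0, or 80% as compared to 46.2% of all genes. The same 4 of 15 were more than 1.5-fold higher, or 26.7% as compared to 2.2%. Both comparisons use the single L6-HGF sheet array, so they are not independent of each other. The list of partner genes was chosen with earlier results of these data known.

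**Figure D5:**
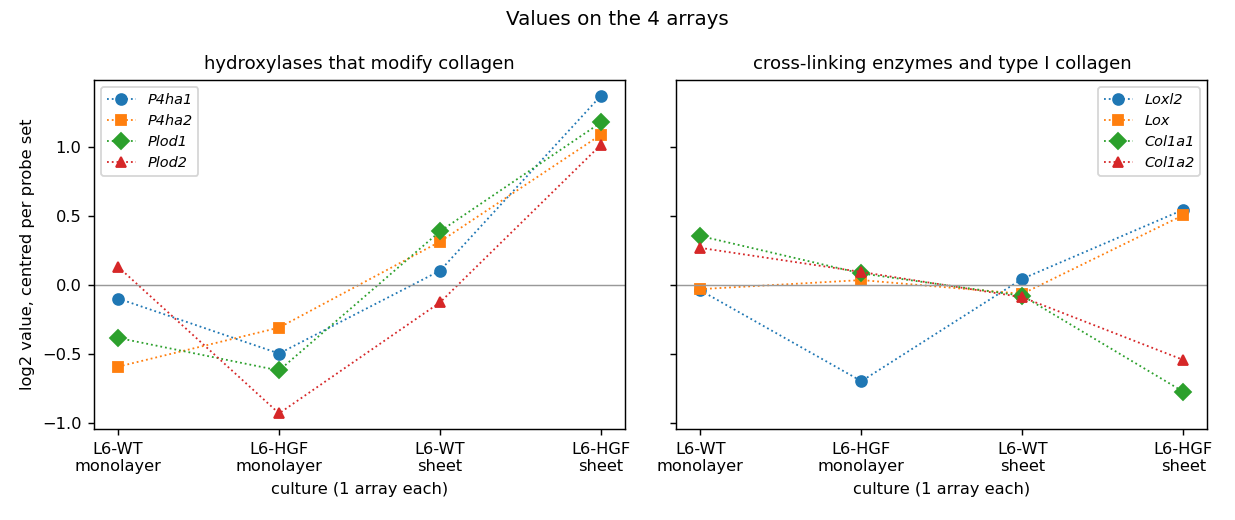
Centred log2 values on the 4 arrays (1 array per culture) of the hydroxylases P4ha1, P4ha2, Plod1 and Plod2 (left) and of Loxl2, Lox, Col1a1 and Col1a2 (right). Dotted lines only join the points of a gene. The 4 hydroxylases shown are those more than 2-fold higher in the L6-HGF sheet than in the L6-HGF monolayer. In L6-HGF sheets they reach 1.01 to 1.37 and Lox and Loxl2 0.50 and 0.54, while Col1a1 is at -0.78.

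Markers of other cell types were read beside these differences. Of 8 fibroblast markers 7 were measured. Dpt, Dcn and Lum, which encode small proteins that bind collagen fibrils, were more than 2-fold higher in the sheets of both lines. They were higher by 3.34, 3.36 and 2.07 in L6-WT and by 3.48, 2.39 and 1.04 in L6-HGF. That is 42.9% of the 7 in each line, as compared to 0.717% of all genes in L6-WT and 1.17% in L6-HGF. Fibroblast markers as a whole ranged from -0.42 to 3.36 in L6-WT (median 0.78) and from -0.52 to 3.48 in L6-HGF (median 0.02), and Pdgfra and Thy1 lay at 0.01 and -0.42 and at -0.38 and -0.52. With hHGF, Dpt and Mfap5 were more than 2-fold lower in monolayers, at -1.23 and -1.50, and in sheets, at -1.08 and -2.26. That is 28.6% of the 7 in each format, as compared to 0.309% of all genes lower in monolayers and 0.95% in sheets. The 7 markers had medians of -0.21 and -0.61. In monolayers 4 of the 7 were below 0 and 3 above, Lum at 0.44, Tcf21 at 0.18 and Dcn at 0.02. In sheets all 7 were below 0, as compared to 53.7% of all genes. Of the markers of myoblasts (6 of 8 measured), endothelium (5 of 6), macrophages (6 of 6) and smooth muscle (4 of 4), none was past 2-fold in any of the 4 comparisons. Within 2-fold, all 4 smooth muscle markers were above 0 with hHGF in sheets, with a median of 0.49 as compared to -0.02 over all genes, and Acta2 and Tagln stood at 0.96 and 0.85. In the same comparison the myoblast markers Myog and Des, which encode a myogenic factor and an intermediate filament of muscle, stood at -0.78 and 0.76, and the 6 myoblast markers had a median of -0.01. The difference between the 3′ and 5′ probe sets of Actb, a sign of RNA quality, moved by 0.17 and 0.20 from monolayer to sheet in L6-WT and L6-HGF and by -0.06 and -0.03 with hHGF in monolayers and sheets. The same difference for Gapdh moved by 0.0006 and 0.10 from monolayer to sheet and by -0.05 and 0.06 with hHGF. Dpt was also 1 of the 2 genes that passed limma's test for the sheet difference. The part of these cell markers and of RNA quality in the collagen and laminin values was not tested.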

How the data were processed

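Total RNA of 4 cultures of rat L6 myoblasts was hybridised to Affymetrix GeneChip Rat Genome 230 2.0 arrays. The authors normalized the arrays with RMA, whose version is not given in the sources used here, and deposited log2 values centred per probe set on the median of the 4 arrays. The centring keeps differences between arrays and removes signal levels, so no filter on dim probe sets could be applied.

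From the 31099 probe sets, 57 controls were left out, and 20826 of the remaining 31042 had 1 gene symbol in the platform annotation, 436 had several and 9780 had none. For 20758 of them the current rat gene table held the Entrez identifier, and 0 symbols changed. A gene is the mean of its single-symbol probe sets, which gave 14217 genes. Cultures were compared as log2 differences with the 2-fold threshold of the study and no test. limma (version 3.58.1, R 4.3.3) was fitted to all genes with terms for cells and format and Benjamini-Hochberg adjustment, and was tested on simulated data. Python 3.11.15, numpy 2.4.6, pandas 2.3.3, SciPy 1.17.1 and matplotlib 3.10.9 were used for the rest.

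Given with all 4 values were, by rule, members past 2-fold, those whose probe sets differed by over 1 (log2), of which there were none, and the highest and lowest member of each class in the hHGF comparisons. Partner genes were named where past 2-fold. The hydroxylases P4ha3, P3h1, Plod3 and P3h3, which are within 2-fold, were named beyond that rule. Col1a2, Col3a1, Col4a1, Col4a2, Lama2, Lamc1 and the other members within 2-fold that the text gives were added after their values were seen. Members and lists were chosen with earlier results of these data known. Alternatives were quantile normalization of the centred values, centring on all probe sets or on bacterial controls, the median of probe sets, single probe sets, exclusion of probe sets of families, a 1.5-fold threshold and a smaller limma model. The number of arrays limits the precision, and nothing could be said on depth from centred values.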

Additional observations from a re-analysis of the deposited data

Results flagged for a closer look

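For 2 genes the hHGF difference had opposite signs in the formats and the formats lay more than 2-fold apart. This was not tested, since each culture had 1 array. The hHGF difference of Col14a1 was 0.50 (log2) in monolayers and -0.85 in sheets, so that sheets minus monolayers was -1.35. The hHGF difference of Loxl2 was -0.66 in monolayers and 0.50 in sheets, so that sheets minus monolayers was 1.16. Col14a1 met the same condition for the sheet comparison, with a difference between sheet and monolayer of 0.23 in L6-WT and -1.12 in L6-HGF. L6-HGF minus L6-WT was again -1.35, since the same 4 values enter both.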

How the results depend on the processing

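With a 1.5-fold threshold, whose shares over all genes stand beside the comparisons above, 6 members were lower with hHGF in monolayers, 3 in sheets and 3 in L6-WT sheets as compared to monolayers, where 0 passed 2-fold, and in L6-HGF sheets 4 were higher and 4 lower, where 1 and 1 passed 2-fold. Quantile normalization left 0 members past 2-fold lower in L6-HGF sheets, with Col14a1 at -0.93 in place of -1.12. Centring the arrays on bacterial controls moved the median of the members in L6-WT sheets from -0.20 to -0.38, together with that of all genes. The limma model for hHGF called 2 genes after quantile normalization and 0 as first fitted. That for the sheet difference called 2 genes as first fitted, 0 with the tested term only, 586 after quantile normalization and 0 over single probe sets. The cause was not tested. Of 148 member differences (37 members in 4 comparisons), 8 changed sign when arrays were centred on bacterial controls, the largest of them 0.15 in size as deposited, 3 with the median of probe sets, 3 without probe sets of families, and 0 under quantile normalization or centring on all probe sets. Each culture had 1 array, so no replicate cultures could be paired and no array could be left out. The limma fit with terms for cells and format gave a single hHGF difference averaged over the formats and a single sheet difference averaged over the lines. The deposited values hold no signal over background, so no member could be called too dim to measure.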
